A study of Mus musculus with 2 samples.

Results

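The cells described here are CD41-low hematopoietic stem cells (HSCs) from the bone marrow of aged mice. They were chosen by surface tags in a CITE-seq experiment, in which each cell's RNA and its bound antibody tags are counted together as unique molecular identifiers (UMIs). A tag was expressed as a centred log ratio (CLR), the natural log of 1 + tag UMIs minus the cell's mean of that value over all antibody tags. Cells with a CD135 CLR below -0.43, a CD48 CLR below 0.53 and a CD150 CLR of at least 1.56 formed the HSC gate, and those with a CD41 CLR below the gate's median of 2.05 were called CD41-low. The rule kept 1239 of 2478 gated cells, of 7967 cells that passed the filters, and the other 1239 gated cells are called CD41-high. CD41, CD150, CD48 and CD135 thus chose the cells, and because the rule sorted cells on measured values, every contrast of CD41-low with CD41-high cells below is a description without a test.

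The chelator pool came from mice given the iron chelator deferoxamine at 50 mg/kg, and the control pool from mice given the vehicle HBSS. Mice were about 6 months old at the start, and daily doses for 7 days were repeated every 4 weeks over 13 months. LSK cells, which lack lineage markers and carry Sca-1 and c-Kit, were sorted, hashtagged by condition, mixed in equal amounts and loaded together on a 10x Genomics 5′ kit, giving 2 libraries, 1 of RNA and 1 of tags. The sources used here name no strain, sex or number of mice, and 1 pool stands for each condition. There were 544 CD41-low cells in the chelator pool and 695 in the control pool, beside 768 and 471 CD41-high cells.

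CD41 is integrin alpha IIb, which pairs with CD61, the product of Itgb3, to form the fibrinogen receptor of platelets. Among mouse HSCs, CD41, von Willebrand factor and other platelet genes mark cells that lean towards the megakaryocyte and platelet lineage, and such cells are known to accumulate with age. Procr, the receptor for activated protein C, and the transcription factors Hlf, Mecom and Hoxb5 are markers of HSCs as a whole. MHC class II molecules, which present peptides to CD4+ T cells, are known mainly from antigen-presenting cells but are also found on part of the stem cell pool.

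The CD41-low cells held 7263890 gene UMIs in the chelator pool and 9218950 in the control pool. The median cell had 12091.5 and 12328 gene UMIs, against 14079.5 and 13450 in CD41-high cells, and 3961 and 4007 genes against 4315 and 4240. Tag UMIs followed the same order, with medians of 4433.5 and 4144 in CD41-low cells and 5003 and 4560 in CD41-high cells, while isotype controls took 0.38% to 0.41% of tag UMIs in all 4 groups. Its own hashtag was the stronger one in 4037 of 4037 chelator and 4025 of 4026 control barcodes, and the pools shared 0 barcodes. Barcodes in which Xist met Y-linked transcripts, which mark mixtures of a female and a male cell, numbered 7 and 12 among CD41-low cells and 13 and 1 among CD41-high cells. Intervals below are exact 95% intervals for counting error only, since cells of a pool are not replicates.

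Of the 4 markers that define the stem cell label, 3 were higher in CD41-low than in CD41-high cells and all 4 were above their levels in the MPP3 gate. Procr stood at 193 and 214 CPM (counts per 1000000 gene UMIs) in the CD41-low cells of the chelator and control pools, against 135 and 138 CPM in CD41-high cells. Hlf stood at 462 and 460 CPM against 294 in both pools, and Mecom at 351 and 363 CPM against 308 and 290 CPM. Hoxb5 went the other way, with 23.5 and 26.1 CPM in CD41-low cells and 25.6 and 36.6 CPM in CD41-high cells. In multipotent progenitors (MPP) of the CD135-, CD48+ and CD150- gate (MPP3), the same 4 genes reached 23.7 and 22.5, 241 and 190, 122 and 119, and 1.73 and 1.81 CPM. Hlf did not set CD41-low cells apart from the MPP1 gate (CD135-, CD48-, CD150-), where it stood at 475 CPM in both pools. Transcripts that define mature cells were rare in CD41-low cells: Ms4a1 of B cells and Cd3e of T cells were at 0, which allows up to 3 UMIs in each pool, and the summed B cell markers reached 0.28 and 0.87 CPM, the neutrophil markers 4.54 and 4.01 CPM and the stromal markers 0.69 and 0.76 CPM. The same sums in CD41-high cells were 0.58 and 0.82, 3.71 and 3.81, and 0.66 and 0.14 CPM. The other mature sets rested on genes that are not confined to mature cells, with Lyz2 at 227 and 236 CPM, Pecam1 at 27.7 and 26.2 CPM and Nkg7 at 39.8 and 50.1 CPM in CD41-low cells, beside 237 and 223, 28.4 and 25.04, and 35.0 and 44.0 CPM in CD41-high cells. The mast cell or basophil markers summed to 3.72 and 5.97 CPM in CD41-low cells, against 3.46 and 4.22 CPM. The whole mature sets summed, in CD41-low cells, to 40.5 and 60.9 CPM for T or NK cells, 230 and 238 CPM for monocytes or macrophages and 35.8 and 36.1 CPM for endothelium, against 35.1 and 48.3, 239 and 223, and 37.1 and 37.97 CPM in CD41-high cells.

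The summed markers of primed progenitors set the 2 groups apart more than those of mature cells. The stem cell markers summed to 1029 and 1063 CPM in CD41-low cells, against 763 and 759 CPM in CD41-high cells, and the megakaryocyte-primed markers to 88.0 and 96.8 CPM, against 531 and 690 CPM. The lymphoid-primed markers summed to 24.0 and 16.6 CPM, against 8.65 and 6.53 CPM. The granulocyte-monocyte-primed sums of 73.7 and 14.8 CPM, against 7.99 and 34.0 CPM, and the erythroid-primed sums of 61.8 and 19.5 CPM, against 10.2 and 5.44 CPM, had no common order in the first case, and the chelator sums in CD41-low cells came largely from Mpo and Car1, each held by a few cells. Doublets were not called, and their part in these sums was not tested.

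The CD41 tag itself, which chose the cells, had a mean CLR of 1.52 ± 0.40 in chelator and 1.49 ± 0.44 in control CD41-low cells (SD over cells), against 2.57 ± 0.36 and 2.48 ± 0.32 in CD41-high cells. In tag UMIs the medians were 41 and 38 in CD41-low cells and 115 and 97 in CD41-high cells, while MPP1 cells had 16 and 15. CD41-low is therefore a relative term, and these cells carried more CD41 tag than MPP1 cells. Cells within 0.1 CLR of the threshold differed little in the tag and in Cd74 between its 2 sides, and more in Pf4. Those just inside (63 and 81 cells) had median CD41 tag counts of 61 and 62 UMIs and 238 and 242 CPM of Cd74, and those just outside (67 and 55 cells) had 72 and 68 UMIs and 245 and 196 CPM. For Pf4 the values just inside were 21.8 and 94.2 CPM, and just outside 73.0 and 269 CPM. Itga2b had no common order, with 58.4 and 45.9 CPM just inside and 43.0 and 66.7 CPM just outside.

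Megakaryocyte and platelet genes were lower in CD41-low than in CD41-high HSCs, in both pools. Of 37 listed genes, 32 passed the minimum of 100 UMIs in each pool, 29 of these lay below 0 and 14 were at least 1.5-fold lower in both pools, with a median log2 ratio of -0.60 (all 10439 genes tested: -0.01). Over all genes tested, 96 genes (0.92%) were at least 1.5-fold lower in both pools and 96 (0.92%) at least 1.5-fold higher. These counts are read as a description, because the CD41 tag set the contrast. Without cycling cells, and with the CD41 median taken anew, they were 16 and 32 of 9426 genes tested, from fewer cells and UMIs.

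Pf4, the platelet chemokine PF4 (CXCL4), had the lowest ratio of all genes ranked. It stood at 34.3 CPM in chelator and 36.4 CPM in control CD41-low cells, against 358 and 481 CPM in CD41-high cells, which is 10.4-fold and 13.2-fold lower. Pf4 was concentrated in a minority of cells: 114 and 117 CD41-low cells had any Pf4 UMI, and in CD41-high cells 3 cells held 1209 of 4342 UMIs in the chelator pool and 928 of 3534 in the control pool. At 5000 UMIs per cell, Pf4 was seen in 11.2% (8.65 to 14.2) and 7.98% (6.04 to 10.3) of CD41-low cells, against 17.7% and 18.2% of CD41-high cells. Cells of the CD135+ and CD150- gate (MPP4), a lymphoid-leaning progenitor, gave 4.19% and 4.66%. MPP1 cells, which carried less CD41 tag, had more Pf4 than CD41-low cells, at 63.5 and 48.5 CPM. Whether part of the CD41-low share is background was not tested. Without thinning the shares were 21.0% and 16.8% in CD41-low, 29.2% and 25.7% in CD41-high and 9.06% and 9.32% in MPP4 cells, whose median depths were 16495.5 and 14570 UMIs. MPP1 cells then gave 26.4% and 24.8%, at median depths of 12070 and 11637.5 UMIs.

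Itga2b, which encodes CD41 itself, was at 34.3 and 38.8 CPM in CD41-low cells and at 124 and 139 CPM in CD41-high cells, a log2 ratio of -1.85 (-2.05 to -1.66) in the chelator pool and -1.84 (-2.02 to -1.67) in the control pool. Its level in CD41-low cells was close to the 40.4 and 37.6 CPM of MPP1 cells. Within the CD41-low cells, Spearman's rho between the CD41 tag and Itga2b RNA was 0.05 over 526 chelator cells and 0.11 over 664 control cells. These cells were all of 1 loading and thinned to the same depth. The rule had cut the range of the tag at the median, and Itga2b was seen in only 13.7% and 14.3% of them. With these limits, rho says little about how tag and RNA relate over the whole gate. Itgb3, which encodes the CD61 partner chain, stood at 54.9 and 62.4 CPM against 84.7 and 91.6 CPM, with log2 ratios of -0.63 and -0.55.

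Parts of the platelet receptor for von Willebrand factor moved the same way. Gp1bb was at 6.33 and 7.59 CPM in CD41-low cells and at 29.3 and 41.4 CPM in CD41-high cells, with log2 ratios of -2.21 (-2.68 to -1.76) and -2.45 (-2.84 to -2.07). Gp1ba had ratios of -1.25 and -1.09, Gp9 of -0.83 and -0.76 and Gp5 of -0.99 and -0.97. Other members past 1.5-fold were Treml1, a receptor of platelet granules, at 8.54 and 12.04 CPM against 27.0 and 24.6 CPM, and Rap1b, a small GTPase that activates platelet integrins, at 217 and 215 CPM against 425 and 479 CPM. Gata1, the erythroid and megakaryocytic transcription factor, stood at 13.1 and 13.9 CPM against 20.0 and 28.7 CPM. Dlk1 was the exception past 1.5-fold in the other direction, at 34.1 and 17.6 CPM in CD41-low cells and 19.0 and 10.1 CPM in CD41-high cells.

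Von Willebrand factor and P-selectin, both stored in platelet granules and both known to be high in aged HSCs, differed less. Vwf was at 73.9 and 94.5 CPM in CD41-low cells and at 119 and 129 CPM in CD41-high cells (log2 ratios -0.68 and -0.45). Selp was at 109.9 and 101 CPM against 139 and 129 CPM (-0.34 and -0.36). Both Vwf and Selp were lower still in the MPP1 gate, whose cells had 3.65 and 3.34 CPM of Vwf and 22.2 and 22.4 CPM of Selp.

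The rest of the 14 lowest genes were expressed at under 12 CPM in CD41-low cells. F2rl2, which encodes the thrombin receptor PAR3, was at 1.65 and 2.93 CPM in CD41-low cells and at 9.89 and 12.1 CPM in CD41-high cells. Ache, which encodes acetylcholinesterase, a known product of mouse megakaryocytes, was at 3.58 and 3.25 CPM against 13.7 and 18.1 CPM, and P2ry1, an ADP receptor of platelets, at 3.99 and 4.99 CPM against 10.9 and 12.8 CPM. Mfsd2b, a transporter that exports sphingosine-1-phosphate from red cells and platelets, was at 8.95 and 11.3 CPM against 22.2 and 31.3 CPM. Serpine2, a thrombin inhibitor, had log2 ratios of -2.17 and -2.18, Pde10a of -1.83 and -2.41, Col18a1 of -1.71 and -1.45, Fap of -1.37 and -1.47, Rgs10 of -1.27 and -1.39, Exoc3l4 of -1.37 and -1.21 and Cited4 of -1.19 and -1.92.

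Sequence upstream of Pf4 and Itga2b is shown because factors of the ETS family are known to act at genes of the megakaryocyte lineage. The windows hold the 150 bases before the RefSeq start on build GRCm38.p6. Capitals mark AGGAAG, a longer form of the ETS core GGAA, on either strand, and other copies of GGAA are left in lower case.
Pf4 (chr5:90772285-90772434, plus strand): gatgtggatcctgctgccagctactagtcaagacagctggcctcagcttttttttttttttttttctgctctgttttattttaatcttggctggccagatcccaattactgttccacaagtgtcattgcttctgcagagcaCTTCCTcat
Itga2b (chr11:102469884-102470033, minus strand): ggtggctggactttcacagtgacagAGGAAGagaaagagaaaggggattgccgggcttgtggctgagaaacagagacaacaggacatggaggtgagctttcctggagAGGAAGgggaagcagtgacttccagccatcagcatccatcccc
AGGAAG begins at -125 and -43 in the Itga2b window and at -9, on the opposite strand, in the Pf4 window. It occurs in 19.7% of all 32851 RefSeq windows of this length, and a match is a description of letters, not of binding.

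**Figure D1:**
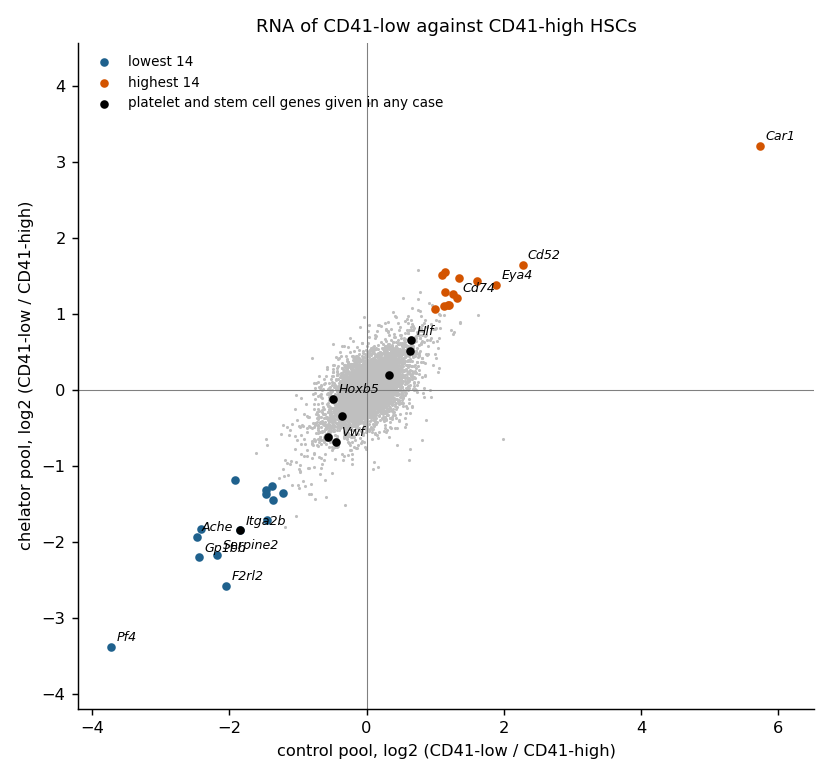
Log2 ratio of CD41-low to CD41-high HSCs in CPM for each of the 10439 genes tested, in the chelator pool (vertical axis) and in the control pool (horizontal axis). Grey points are genes, blue and orange points the 14 lowest and 14 highest by rule, and black points the platelet and stem cell genes named in any case; Pf4 lies lowest at -3.38 and -3.72, and Car1 at the upper right rests on 4 and 7 CD41-low cells.

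MHC class II genes were higher in CD41-low HSCs. Of 23 listed antigen presentation genes 22 passed the minimum and all 22 lay above 0, with a median log2 ratio of 0.20, and the 4 that reached 1.5-fold in both pools were the class II genes. Cd74, the invariant chain that escorts class II molecules, stood at 349 and 362 CPM in CD41-low cells and at 150.5 and 145 CPM in CD41-high cells, with log2 ratios of 1.21 (1.13 to 1.30) and 1.32 (1.22 to 1.42). H2-Aa, the alpha chain of I-A, stood at 188 and 169 CPM against 89.8 and 84.1 CPM, and H2-Eb1, the beta chain of I-E, at 115 and 101 CPM against 52.7 and 43.7 CPM. H2-Ab1, the beta chain of I-A, differed less, at 114 and 102 CPM against 68.1 and 67.1 CPM.

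Class I genes moved far less. H2-K1 had log2 ratios of 0.17 in both pools, H2-D1 of 0.17 and 0.11, and B2m, the shared light chain, of 0.13 and 0.17. The peptide transporter gene Tap1 had 0.10 and 0.09. H2-Q6 and H2-Q7 are near-identical copies whose reads may be split, so their ratios of 0.33 and 0.12, and of 0.19 and 0.04, are uncertain.

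Cd74 was also detected in more CD41-low than CD41-high cells. At 5000 UMIs per cell, Cd74 was seen in 46.6% (42.3 to 50.9) and 43.8% (40.01 to 47.7) of CD41-low cells and in 25.6% and 28.5% of CD41-high cells, while MPP2 cells (CD135-, CD48+, CD150+) gave 13.1% and 17.4%. Without thinning these shares were 59.0% and 54.7%, 37.5% and 38.004%, and 29.4% and 26.9%, with median depths of 21883.5 and 20586 UMIs in MPP2 cells. Transcripts of Cd74, H2-Aa, H2-Ab1 or H2-Eb1 without any of the 5 platelet genes Pf4, Itga2b, Gp1bb, Gp5 and Treml1 were seen in 48.1% and 46.2% of CD41-low cells, against 28.3% and 26.4% of CD41-high cells. The reverse pattern, platelet transcripts alone, was seen in 11.03% and 10.54% of CD41-low cells, against 24.3% and 23.4% of CD41-high cells. Cells with both kinds were about as common on each side in the chelator pool, at 19.4% against 20.0%. In the control pool they were fewer among CD41-low cells, at 17.8% (14.9 to 20.9) against 23.6% (19.8 to 27.7). MPP1 cells had Cd74 levels of 326 and 434 CPM, and at 5000 UMIs 44.2% and 50.6% of them had Cd74. Cd74 thus did not set CD41-low cells apart from MPP1 cells. At that depth MPP4 cells gave 30.2% and 35.7%, and MPP3 cells 18.7% in both pools. H2-Ab1 was higher than in CD41-low cells in MPP1 (145 and 164 CPM), MPP3 (178 and 234 CPM) and MPP4 cells (230 and 213 CPM). MPP2 cells, at 125 and 77.1 CPM of H2-Ab1, had no common order against CD41-low cells.

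The sequence upstream of 2 class II genes is shown because both windows carry the paired X and Y boxes that the class II transactivator complex is known to use. Capitals mark the X box core GCAAC and the Y box ATTGG, on either strand, in the 150 bases before the RefSeq start on build GRCm38.p6.
H2-Aa (chr17:34287824-34287973, minus strand): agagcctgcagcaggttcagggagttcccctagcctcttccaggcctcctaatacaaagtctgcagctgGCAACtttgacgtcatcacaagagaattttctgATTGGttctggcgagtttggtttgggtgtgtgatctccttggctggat
H2-Eb1 (chr17:34305717-34305866, plus strand): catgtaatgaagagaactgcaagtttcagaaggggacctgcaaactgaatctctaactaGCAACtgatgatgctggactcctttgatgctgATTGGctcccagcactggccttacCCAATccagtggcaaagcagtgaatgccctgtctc
The X box core begins at -81 in H2-Aa and at -91 in H2-Eb1, each followed by a Y box at -48 and -59. H2-Eb1 has a further Y box match at -35, on the opposite strand. On either strand GCAAC occurs in 19.6% and ATTGG in 24.5% of all 32851 windows. The order GCAAC then ATTGG on 1 strand occurs in 0.874%. Both genes were shown for their matches, so the matches are a description of letters and not a result about the higher genes.

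The surface tags gave the same picture at the protein level for class II, with tags that the gate had not used. The I-A/I-E tag, which binds class II molecules, had a mean CLR of 0.21 ± 0.91 and 0.07 ± 0.97 in the CD41-low cells of the chelator and control pools, against -0.23 ± 0.86 and -0.30 ± 0.91 in CD41-high cells (SD over cells), a difference of 0.44 and 0.36. CD86, a costimulatory ligand of T cells, differed by 0.52 and 0.47, with median counts of 12 and 10 tag UMIs against 7 and 6. Sca-1 (Ly-6A/E) differed by 0.40 and 0.36, with 16 and 13 against 10 and 10 tag UMIs, and the sort itself used Sca-1 and c-Kit antibodies. The 9 isotype controls differed by -0.07 to 0.09, so the 3 differences are larger than any of theirs, although each is smaller than the SD over cells.

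Sca-1 also had its RNA on the same side: Ly6a stood at 240.2 and 240.0 CPM in the CD41-low cells of the chelator and control pools, against 156 and 148 CPM in CD41-high cells. Within CD41-low cells, Spearman's rho was 0.51 and 0.57 between the Sca-1 tag and Ly6a RNA and 0.45 and 0.48 between the I-A/I-E tag and class II RNA. It was 0.48 in both pools between the CD86 and I-A/I-E tags, but only 0.12 and 0.14 between the CD86 tag and Cd86 RNA. Each value covers 526 chelator and 664 control cells that share 1 loading and differ in depth of tags, and it is given as a description. Cd86 RNA itself was sparse, at 2.34 and 1.74 CPM in CD41-low and 0.99 and 0.95 CPM in CD41-high cells.

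Of 113 surface tags outside the rule, 88 differed in the same direction in both pools, as did 7 of the 9 isotype controls. The count of 88 is therefore not read as a result about the surface tags. Higher in CD41-low cells were also CD24 (0.25 and 0.23), CD27, a receptor of the TNF family on lymphoid and progenitor cells (0.35 and 0.20), and CD45RB, an isoform of the leukocyte phosphatase CD45 (0.30 and 0.19). Lower were CD61, the partner chain of CD41 (-0.24 and -0.28), CD31 or PECAM-1 (-0.21 and -0.18), CD98 (-0.16 and -0.18), CD93 (-0.21 and -0.12), CD223 (-0.11 and -0.12) and the tetraspanin CD9 (-0.16 and -0.11). P-selectin (CD62P) differed by 0.03 and 0.02, CD49b by 0.03 and 0.01 and CD117 (c-Kit) by 0.01 and -0.01, all within the isotype range, whereas CD34 differed by 0.05 and 0.12. Among the tags that chose the cells, CD150 was lower by 0.29 and 0.22 (131.5 and 136 against 202.5 and 196 median tag UMIs), and CD135 and CD48 were higher by 0.11 and 0.12 and by 0.07 and 0.09.

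**Figure D2:**
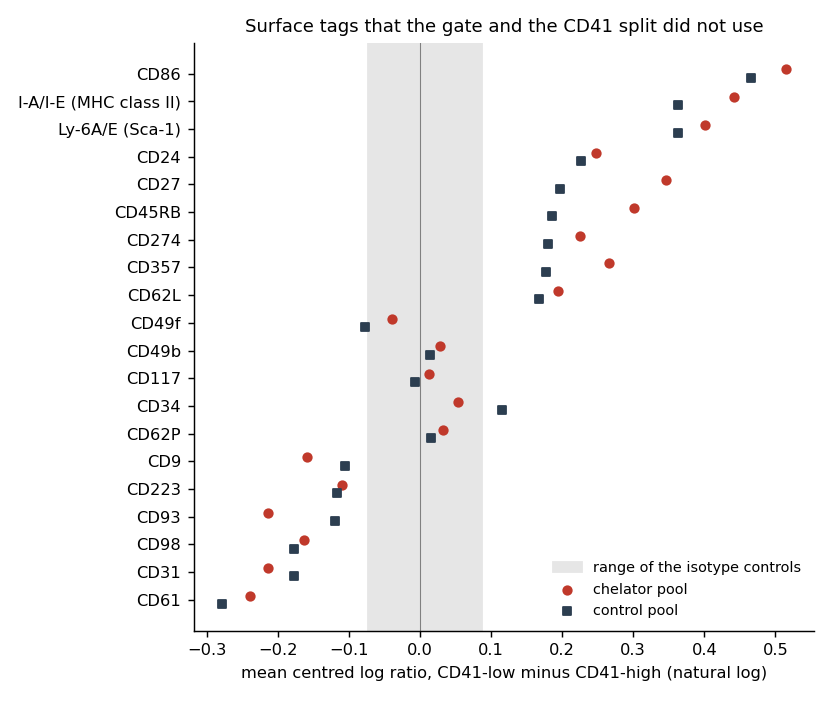
Difference in mean centred log ratio (natural log) between CD41-low and CD41-high HSCs for 20 surface tags that the gate and the CD41 split did not use (CD41, CD150, CD48 and CD135 are not shown), in the chelator pool (circles) and in the control pool (squares). The grey band is the range of the isotype controls, -0.07 to 0.09; of the tags shown, CD86, I-A/I-E and Sca-1 lie farthest to the right and CD61 farthest to the left.

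Stem cell genes as a group differed little, but several of the best-known ones were higher in CD41-low cells. Of 30 listed genes, all tested, 20 lay above 0, the median log2 ratio was 0.09, and Hlf (0.65 in both pools) and Ly6a (0.62 and 0.70) passed 1.5-fold. Procr followed with 0.51 (0.41 to 0.62) and 0.63 (0.52 to 0.74), and Ifitm1, an interferon-inducible membrane protein of a family of similar genes, with 0.46 and 0.60. Mecom had 0.19 and 0.32, Hoxa9 0.50 and 0.36 and Angpt1, the growth factor angiopoietin-1, 0.04 and 0.14. Gata2 (-0.19 in both pools), Gfi1b (-0.25 and -0.42) and Ctnnal1 (-0.37 and -0.52) were on the other side without reaching 1.5-fold, as was Hoxb5 (-0.12, interval -0.40 to 0.16, and -0.49, interval -0.74 to -0.23).

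Genes known to be higher in aged HSCs did not separate the cells as a group. Of 41 tested, 18 lay above and 23 below 0, with a median of -0.05. Clu, which encodes the chaperone clusterin and is a strong marker of aged HSCs, was at 82.5 and 107 CPM in CD41-low cells and 213 and 191 CPM in CD41-high cells, and Ehd3 was also past 1.5-fold lower, at 50.7 and 53.0 CPM against 79.1 and 80.7 CPM. Klf6 was past 1.5-fold in the other direction, at 94.9 and 80.1 CPM against 58.9 and 48.5 CPM. Outside the HSC gate, Clu stood at 1.83 and 2.09 CPM in MPP1 cells and at 23.9 and 20.1 CPM in MPP2 cells.

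Lymphoid priming genes were higher in CD41-low than in CD41-high cells. Of 22 listed genes only 10 passed the minimum, 9 of them lay above 0 and the median log2 ratio was 0.56. Flt3, the receptor that marks lymphoid-primed progenitors and whose product CD135 was used in the gate, stood at 14.5 and 9.98 CPM against 5.36 and 3.27 CPM, and in MPP4 cells at 276 and 280 CPM. Cd52, a small glycoprotein of lymphocytes, stood at 13.9 and 9.87 CPM against 4.45 and 2.04 CPM, and Ltb, lymphotoxin beta, at 188 and 204 CPM against 88.8 and 103 CPM. Ltb stood at 159 and 220 CPM in MPP1 cells, close to CD41-low cells, and at 78.5 and 95.5 CPM in MPP4 cells. Granulocyte-monocyte genes had a median of 0.50 over the 9 tested, with Plac8 at 46.4 and 36.8 CPM against 19.0 and 16.6 CPM and Mgst1 at 10.9 and 9.11 CPM against 6.18 and 4.36 CPM as the members past 1.5-fold. Mpo rested on single cells: 3 cells held 335 of the 375 Mpo UMIs in chelator CD41-low cells.

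Interferon response genes lay slightly higher in CD41-low cells. Of 25 tested, 23 were above 0 and the median was 0.22. The Gimap GTPases, proteins of lymphocyte survival that HSCs also express, had a median of 0.46 over 6 tested, all above 0 and none past 1.5-fold. Gimap6 stood at 178 and 246 CPM against 128 and 183 CPM.

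Among the 14 highest genes were both chains of the basement membrane collagen IV. Col4a1 stood at 27.4 and 25.1 CPM in CD41-low cells and at 11.5 and 10.48 CPM in CD41-high cells, and Col4a2 at 20.2 and 20.7 CPM against 7.34 and 8.17 CPM. The 2 genes were spread over many cells: Col4a1 was seen in 143 and 166 CD41-low cells. Eya4, a transcriptional coactivator and phosphatase, stood at 24.1 and 17.7 CPM against 9.23 and 4.76 CPM, Myl10, a myosin light chain, at 80.5 and 107 CPM against 28.3 and 50.2 CPM, and Anxa6, a calcium-dependent membrane-binding protein, at 21.6 and 25.5 CPM against 10.1 and 11.7 CPM. Gated cells with Xist alone held 555 and 1023 Myl10 UMIs, and those with Y-linked transcripts alone 236 and 112. The log2 ratios of Myl10 were 1.35 and 0.97 in the former and 0.90 and 0.36 in the latter. MPP1 cells had 65.5 and 126 CPM of Myl10. Shisa8 had log2 ratios of 1.55 and 1.14 and Ms4a6c of 1.12 and 1.19. Car1, an erythroid carbonic anhydrase, had the highest ratio, 3.21 and 5.73, but 3 cells held 404 of 405 UMIs in the chelator pool and 126 of 133 in the control pool.

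Cell cycle genes were lower in CD41-low cells. All 30 G2 and M phase genes lay below 0, with a median of -0.53, and 29 of 30 S phase genes, with a median of -0.35. Ccnb1, cyclin B1, stood at 13.8 and 19.0 CPM against 28.9 and 37.3 CPM, and Cenpf, a kinetochore protein, at 33.5 and 38.7 CPM against 56.0 and 63.0 CPM, and 8 of the G2 and M genes passed 1.5-fold. Counting as cycling any cell with a positive S or G2M score at 5000 UMIs, 18.8% (15.6 to 22.4) and 20.5% (17.5 to 23.8) of CD41-low cells were counted, against 30.7% (27.4 to 34.2) and 28.5% (24.5 to 32.9) of CD41-high cells. The unthinned shares were 18.0% and 19.4% against 28.7% in both pools. MPP1 cells gave 39.8% and 31.7% and MPP3 cells 78.9% and 74.9%.

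Cycling moved with the platelet genes, so the ratios were also taken without cycling cells. For this a cell counted as cycling by its unthinned score. The CD41 median was taken anew over the gated cells left, so the 2 groups are a new split. Without cycling cells Pf4 had a log2 ratio of -0.70 in the chelator pool and -3.15 in the control pool, a mean of -1.92, and Serpine2 had a mean of -0.72. Itga2b had a mean of -1.63 (-1.85 over all cells) and Gp1bb of -1.65 (-2.33 over all cells), with -1.22 in the chelator pool. Pde10a had -0.27 in the chelator pool and -2.23 in the control pool, and P2ry1 -1.88 and -0.18. The median of the megakaryocyte and platelet list was -0.28 without cycling cells, over the same 32 members. Cd74 then had 1.02, H2-Aa 0.94, H2-Eb1 1.10, Col4a1 1.17, Hlf 0.48 and Procr 0.32. The G2 and M list had 0.04, which is not a result, because a score on these same genes chose the cells left out. Plac8 had -0.02 and 0.42 without cycling cells, and 3 cells held 166 of its 337 UMIs in chelator CD41-low cells. The part of sex was not tested: among cells with a sex marker, 37.7% and 39.3% of CD41-low cells had Xist, against 19.4% and 30.7% of CD41-high cells. Cd74 and Pf4 kept their direction in both pools within cells of either sex marker.

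Erythroid genes had a median of -0.39 over 11 tested, with 9 below 0, 5 at least 1.5-fold lower and 2 at least 1.5-fold higher. Aqp1, a water channel of red cells, stood at 11.7 and 11.3 CPM against 25.6 and 25.04 CPM, and Epor, the erythropoietin receptor, at 10.6 and 10.7 CPM against 16.8 and 21.6 CPM, while the members past 1.5-fold higher were Car1 and Hbb-bt. The haemoglobin genes Hbb-bs and Hbb-bt are near-identical copies with opposite ratios, so neither is read. The other lists had medians between -0.14 and 0.14. Nuclear-encoded oxidative phosphorylation genes had a median of -0.13 (42 of 45 below 0), Myc targets and ribosome biogenesis genes of -0.13 (30 of 30 below 0), D cyclins with CDK4/6 of -0.14, heat shock genes of -0.09, heme synthesis genes of -0.05 and glycolysis genes of -0.04, with none past 1.5-fold. Iron uptake, storage and export genes had 0.06 over 19 tested, also with none past 1.5-fold. Quiescence genes had 0.12, cytokine and growth factor receptors 0.12, stem cell and blood transcription factors 0.11, TGF-beta response genes 0.14, immediate-early genes 0.07 and adhesion genes 0.01, each with at most 2 members past 1.5-fold in a direction. Genes named here for passing 1.5-fold within a list, such as Clu, Ehd3 and Klf6, were named after their values were seen.

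The differences ran through the CD41 range rather than stopping at the median. In 4 equal bins of the CD41 tag, from lowest to highest, Itga2b stood at 26.9, 40.2, 61.2 and 174 CPM in the chelator pool and at 27.0, 50.3, 79.4 and 202 CPM in the control pool. Pf4 stood at 45.8, 25.05, 91.7 and 571 CPM in the chelator pool and at 19.1, 53.3, 211 and 767 CPM in the control pool, with no common order in the 2 lower bins. Cd74 had the opposite slope, with 463, 257, 209 and 103 CPM in the chelator pool and 428, 298, 205 and 81.5 CPM in the control pool. Hlf followed the slope of Cd74, with 495, 435, 351 and 250 CPM and with 511, 411, 346 and 239 CPM. The share of cycling cells ran upward, with 14.5%, 22.7%, 26.8% and 34.2% and with 17.2%, 23.9%, 25.4% and 32.4%, and median depth ran upward too, between 11553 and 14730 UMIs in the chelator pool and between 11843 and 14099 UMIs in the control pool.

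**Figure D3:**
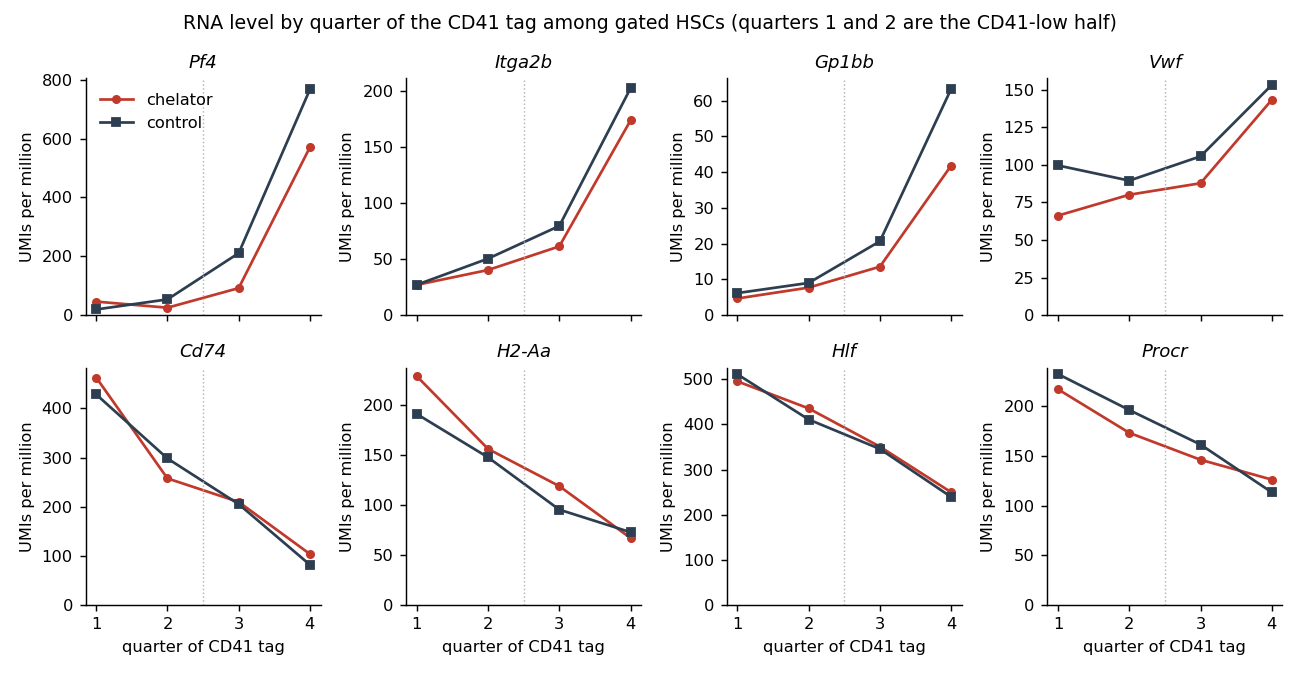
CPM of 8 genes (vertical axes) in 4 equal bins of the CD41 tag over all gated HSCs (horizontal axes, lowest to highest), for the chelator pool (circles) and the control pool (squares). The dotted line is the median, and the 2 bins to its left are the CD41-low cells; Pf4, Itga2b, Gp1bb and Vwf are highest in the last bin and Cd74, H2-Aa, Hlf and Procr in the first.

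CD41-low cells took a smaller share of the HSC gate in the chelator pool than in the control pool. They were 41.5% (38.8 to 44.2) of gated chelator cells and 59.6% (56.7 to 62.4) of gated control cells, a difference of -18.1 points (-22.0 to -14.2). Of all LSK cells they were 13.6% and 17.5%, a difference of -3.90 points (-5.51 to -2.30), while the whole gate was 32.8% and 29.4% of LSK cells and CD41-high cells 19.2% and 11.9%. The mean CD41 CLR of the gate was 2.13 in the chelator and 1.89 in the control pool. Over the whole gate the log2 ratio of chelator to control was 0.11 (0.01 to 0.22) for the RNA of CD41, Itga2b, and 0.02 (-0.04 to 0.08) for Pf4.

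The difference in share was not alike in cells of either sex, and the sexes made up unequal parts of the pools. Cells with Xist and no Y-linked transcripts (Xist cells) were 26.1% of sexed LSK cells in the chelator pool and 42.1% in the control pool, and they come from other mice than cells with Y-linked transcripts and no Xist (Y cells). Within the gate, CD41-low cells were 58.0% and 63.5% of Xist cells, a difference of -5.53 points (-13.3 to 2.26), and 35.3% and 54.3% of Y cells, a difference of -19.0 points (-24.2 to -13.7). Of all LSK cells, the difference was 4.15 points (0.94 to 7.45) in Xist cells, from 19.4% and 15.2%, and -5.77 points (-7.89 to -3.68) in Y cells, from 11.3% and 17.1%. With 1 pool per condition, treatment, mouse and staining of a pool cannot be told apart. With the CD41 median taken within each pool, CD41-low cells were a larger share of LSK cells in the chelator pool, by 1.72 points. Without the cells of fewest tag UMIs the difference was -12.1 points. That tag cutoff was set among gated cells, with median tag UMIs of 4774.5 and 4313.5. It was applied to all LSK cells, whose medians were 3448.5 and 3041. The -12.1 is thus a share of the deeply tagged LSK cells alone and is not comparable with -3.90.

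**Figure D4:**
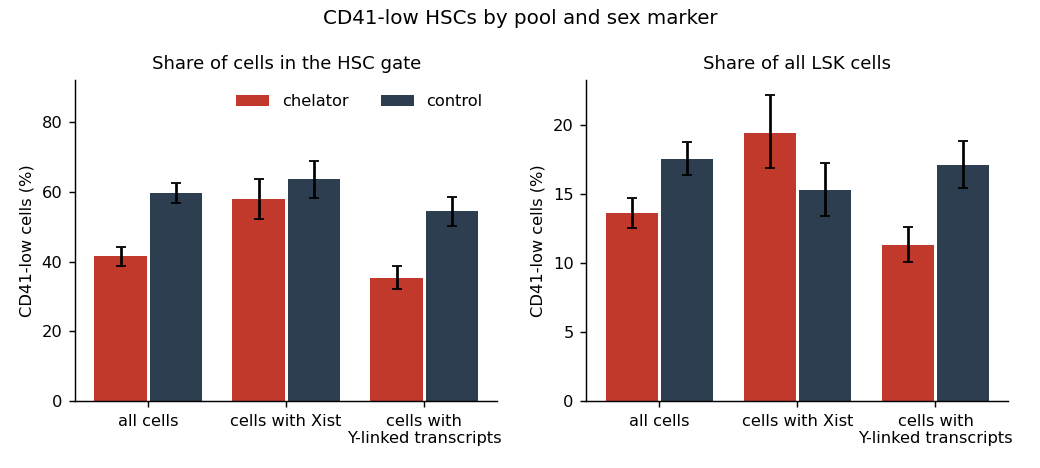
CD41-low HSCs as a percentage of all gated cells (left) and of all LSK cells (right) in the chelator pool (red) and in the control pool (dark blue), over all cells and within Xist cells or Y cells. Bars are shares and error bars exact 95% binomial intervals; the left panel shows 41.5% in the chelator pool and 59.6% in the control pool over all cells.

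Within CD41-low cells, few genes differed between the pools by size. Of 8880 genes with at least 200 UMIs over both pools, 25 (0.282%) were at least 1.5-fold lower in the chelator pool and 16 (0.18%) at least 1.5-fold higher, and the median log2 ratio of all genes was 0.00. Of the 10 lowest genes, 6 were replication-dependent histone genes, a group seen after ranking and for which no list was counted. Hist1h3b was at 22.9 CPM in the chelator pool and 52.9 CPM in the control pool, a log2 ratio of -1.21 (-1.47 to -0.95), and Hist1h2bg at 41.2 and 69.8 CPM. Hist1h2bn, at 10.2 and 35.0 CPM, rested on few cells, since 193 of its 323 control UMIs came from 3 cells. Hist1h2bb (11.7 and 29.7 CPM), Hist1h2ak (17.3 and 32.5 CPM) and Hist2h3b (12.9 and 21.9 CPM) followed, and histone genes have near-identical copies between which reads may be split. The ratios in Xist cells and Y cells were -3.06 and -0.40 for Hist1h2bn, -2.55 and 0.01 for Hist1h2bb and -1.40 and -0.25 for Hist1h2bg. They were -2.01 and -0.76 for Hist1h3b, -1.33 and -0.53 for Hist1h2ak and -1.10 and -0.69 for Hist2h3b. Without the 3 richest cells of each pool the ratio was -0.87 for Hist1h2bn, -0.36 for Hist1h2bb, -0.70 for Hist1h3b and -0.58 for Hist1h2bg. For Hist1h2ak and Hist2h3b it was then -1.04 and -0.83, against -0.91 and -0.76 over all cells. Without cycling cells the ratio of Hist1h2ak was 0.25.

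Other lower genes were Ncam2, a neural cell adhesion molecule, at 34.1 CPM in the chelator and 61.1 CPM in the control pool, with ratios of -1.24 and -0.57 in Xist cells and Y cells. Gimap1os, an opposite-strand transcript named for Gimap1, stood at 9.91 and 18.4 CPM. The Gimap genes themselves had a median of -0.34 over 5 tested, all below 0 and none past 1.5-fold, with Gimap6 at 178 and 246 CPM (-0.47, interval -0.57 to -0.37). Cdk5rap1 was at 14.5 and 30.2 CPM, with ratios of 0.04 in Xist cells and -1.996 in Y cells. Gkn3, a secreted gastrokine, was at 10.7 and 19.1 CPM, with ratios of 0.99 (0.32 to 1.67) in Xist cells and -2.34 (-3.12 to -1.63) in Y cells.

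Immediate-early genes, which are induced quickly by many stimuli and encode AP-1 subunits and related factors, made up 4 of the 10 highest genes, after Mpo, Car1, Vldlr and Dlk1. Of 24 listed genes 19 were tested, 14 lay above 0, and the 4 past 1.5-fold were Fos, Fosb, Nr4a1 and Socs3, with a list median of 0.27. Fos stood at 821 CPM in the chelator and 479 CPM in the control pool (0.78, interval 0.72 to 0.83), Fosb at 62.0 and 37.6 CPM, Nr4a1, an orphan nuclear receptor, at 57.0 and 33.5 CPM and Socs3, an inhibitor of cytokine signalling, at 36.5 and 19.1 CPM. Jund (681 and 471 CPM) and Egr1 (704 and 495 CPM) were below 1.5-fold, and Jun (510 and 544 CPM) lay on the other side. The 2 sexes stood on opposite sides: over the same 19 members the median was -0.38 in Xist cells and 0.90 in Y cells, and Fos had -0.01 (-0.12 to 0.09) and 1.37 (1.29 to 1.45). CD41-high cells gave a list median of 0.37 and a Fos ratio of 0.75, so the difference between pools was not limited to CD41-low cells.

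Vldlr, the very low density lipoprotein receptor, stood at 23.4 CPM in the chelator and 11.3 CPM in the control pool, and in CD41-high cells its ratio was 0.85, against 1.05 here. Dlk1, an imprinted membrane ligand, stood at 34.1 and 17.6 CPM, with ratios of -1.99 (-3.55 to -0.69) in Xist cells, from 6 and 29 UMIs, and 1.12 (0.79 to 1.47) in Y cells. Tbc1d25 (17.2 and 10.96 CPM) and Eps8l1 (16.2 and 10.4 CPM) were the smallest of the 10 ratios on this side. Mpo (51.6 and 10.2 CPM) and Car1 (55.8 and 14.4 CPM) had the largest ratios, 2.34 and 1.95, but without the 3 richest cells of each pool Mpo had -0.25. The Car1 ratio rests on the same few cells given above, with 403 chelator and 1 control UMI in Xist cells and 2 chelator and 60 control UMIs in Y cells, so no direction is read from it.

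Iron genes did not separate the pools in CD41-low cells. Of 31 listed iron genes 14 were tested, 6 lay above and 8 below 0, none reached 1.5-fold and the median log2 ratio was -0.05. Fth1, the ferritin heavy chain, stood at 1861 CPM in the chelator and 1858 CPM in the control pool (0.00, interval -0.03 to 0.03). Ftl1, the ferritin light chain, stood at 189 and 206 CPM (-0.12, interval -0.23 to -0.02). Tfrc, the transferrin receptor that cells raise when iron is short, stood at 7.43 and 7.48 CPM from 54 and 69 UMIs (-0.01, interval -0.55 to 0.53), below the minimum of 200. Slc40a1, the iron exporter ferroportin, had 19 and 9 UMIs and an interval of 0.21 to 2.75. Heph, a copper-containing ferroxidase, stood at 1499 and 1463 CPM, and heme synthesis genes had a list median of -0.05.

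The stem cell and aged-HSC lists were also close between the pools. The stem cell list had a median of -0.07, with 24 of 30 below 0 and Rarb, a retinoic acid receptor, past 1.5-fold at 31.4 CPM in the chelator and 48.7 CPM in the control pool. Hlf had 0.01 (-0.06 to 0.07), Mecom -0.05 (-0.12 to 0.03), Procr -0.15 (-0.25 to -0.05) and Hoxb5 -0.15 (-0.44 to 0.14). The aged-HSC list had a median of -0.07 over 41 tested, with ratios of -0.35 for Vwf, 0.13 for Selp and -0.37 for Clu. The G2 and M phase list had -0.30, with 27 of 28 below 0. The class II and other antigen presentation genes had 0.01, interferon genes 0.03 and megakaryocyte and platelet genes -0.04. All other lists lay between -0.08 (erythroid) and 0.06 (Myc targets).

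Some surface tags differed between the pools in CD41-low cells, and by similar amounts in CD41-high cells. Chelator minus control, CD62P was lower by 0.33 in CD41-low cells, CD93 by 0.33, CD71, the transferrin receptor, by 0.29, CD34 by 0.26 and CD45 by 0.23, while CD49b was higher by 0.23, Ly-49A by 0.21 and CD357 by 0.20. In CD41-high cells the same differences were -0.35, -0.24, -0.25, -0.20, -0.23, 0.22, 0.14 and 0.12. The isotype controls differed by -0.08 to 0.15 in CD41-low cells. CD71 was counted at a median of 2 tag UMIs in the chelator and 3 in the control pool, so its difference rests on very few molecules per cell.

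**Figure D5:**
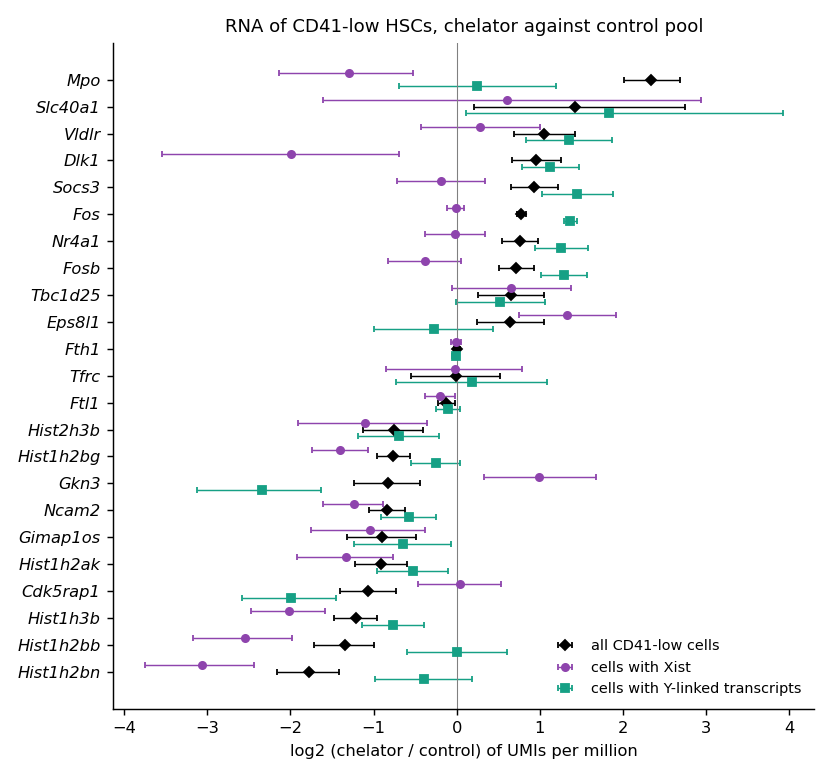
Log2 ratio of chelator to control CPM (horizontal axis) in CD41-low HSCs for the 10 highest and 10 lowest genes by rule and 4 iron genes, without Car1, over all cells (diamonds), Xist cells (circles) and Y cells (squares), with exact 95% intervals for counting error. Fos lies at 0.78 over all cells, -0.01 in Xist cells and 1.37 in Y cells, and Fth1 at 0.00.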

How the data were processed

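The UMI counts of genes and antibody tags were deposited by the authors as 1 filtered matrix per pool. Per the submitters' processing notes the reads went through Cell Ranger 7.0.0 with mm10 and Seurat 4.3.0, while the matrix headers, per the file headers, name Cell Ranger 7.0.1. Of 32285 gene IDs 32158 matched the name table.

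The cell filter (500 genes or more, less than 10% of UMIs from mitochondrial genes) removed 39 of 4037 chelator and 57 of 4026 control barcodes. The gate used 126 antibody tags, 9 of them isotype controls, and 2 hashtags. The members and the 24 gene lists and 12 marker sets were chosen with earlier results of these data known. Doublets were not called; cells with both sex markers were left out as an alternative. Cells with at least 2 Xist UMIs and no UMI of 4 Y-linked genes were called Xist cells, and cells with at least 1 Y-linked UMI and no Xist UMI Y cells. Cell cycle scores compare listed S and G2M genes with 50 control genes each from 25 expression bins, and thinning drew 5000 UMIs per cell.

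Counts were summed per group and divided by its gene UMIs. Ratios have exact conditional binomial intervals and shares exact Clopper-Pearson intervals (95%). The interval of a difference of shares combines those of both shares. With 1 pool per condition there was no test across pools and no p-value; genes were called at 1.5-fold, in both pools for CD41-low against CD41-high cells (at least 100 UMIs in each pool), and in CD41-low cells for chelator against control (at least 200 UMIs). Named were the 14 lowest and 14 highest genes by the smaller of the 2 pools' ratios with 8 platelet and stem cell genes, the 10 highest and 10 lowest chelator to control ratios with 4 iron genes, up to 4 abundant members per list, and the 6 highest and 6 lowest tags with listed ones. Mitochondrial, immunoglobulin, T cell receptor, haemoglobin, predicted, Xist, Tsix and Y-linked genes were left out of the ranking. Alternatives changed the gates, the CD41 scale and threshold, cell filters, gene minimums, sex and cycling cells, thinning and rich cells. The CD41 median was taken anew where cells were left out before the gate, as for cycling cells, which were scored unthinned. The scripts were tested on simulated data.

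Promoter windows and gene positions are RefSeq's for GRCm38.p6. Python 3.11.15, numpy 2.4.6, scipy 1.17.1, pandas 2.3.3 and matplotlib 3.10.9 were used. Results for some list members are not reported here.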

Additional observations from a re-analysis of the deposited data

Results flagged for a closer look

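In 4 results, Xist cells and Y cells lay on opposite sides of 0 between the chelator and control pools by more than counting error in each (for a share or a gene with at least 3 UMIs in each group), or by more than 0.1 in each for a list median. Genes whose ratio crossed 0 without meeting this are given with the processing alternatives. The difference between the sexes was not tested in any of them, and the 2 kinds of cells come from different mice of the same pools. CD41-low HSCs as a share of LSK cells differed by 4.15 points in Xist cells and by -5.77 points in Y cells. The log2 ratio of chelator to control in CD41-low cells was 0.99 and -2.34 for Gkn3, -1.99 and 1.12 for Dlk1, and -0.376 and 0.905 for the median of the immediate-early list. Dlk1 in Xist cells rests on 6 chelator and 29 control UMIs.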

How the results depend on the processing

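The limits are the design: 1 pool per condition, an unknown number of mice, sexes in unequal shares, and counts whose intervals cover counting error only. No paired analysis was possible because each condition is 1 pool and no result comes from a test.

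Counts are given with the genes tested, which differ between settings. The count of genes at least 1.5-fold lower in CD41-low than in CD41-high cells was 96 of 10439. It was 58 of 10439 with CD41 per 10000 tag UMIs and 16 of 9426 without cycling cells. In Xist cells it was 61 of 6803 and in Y cells 46 of 9046. It was 55 of 9940 without the cells of fewest tag UMIs, 29 of 7532 after thinning and 56 of 8864 at a minimum of 200 UMIs. The count higher (96) was 62 per 10000 tag UMIs, 32 without cycling cells, 35 in Y cells, 24 after thinning and 52 at 200 UMIs, of the same numbers tested. Between chelator and control, the lower count was 25 of 8880. It was 14 of 7420 without cycling cells, 42 of 4723 in Xist cells and 16 of 6360 in Y cells. It was 9 of 4964 after thinning, 8 of 6336 at a minimum of 400 and 68 of 10465 at 100 UMIs. With the sexes weighted equally it was 39 of 8340. It was 40 of 8880 without the 3 richest cells of each gene, a setting chosen after seeing the data. The higher count (16 of 8880) was 9 of 4964 after thinning, 9 of 6336 at 400 and 47 of 10465 at 100 UMIs.

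For CD41-low against CD41-high cells, the stem cell median (0.09) was 0.13 between the lowest and highest of 3 bins of CD41, 0.15 under stricter gates, 0.031 without cycling cells, 0.18 and 0.12 in Xist and Y cells, 0.060 after thinning and 0.15 with the sexes equal. The megakaryocyte and platelet median (-0.60) was -0.77, -0.48, -0.27, -0.70, -0.42 and -0.37 in the same settings up to thinning, -0.48 without the cells of fewest tag UMIs, -0.48 as a mean per cell and -0.54 at 200 UMIs. The aged-HSC median (-0.05) was -0.086 with centring on surface tags, -0.092 between those bins, -0.087 per tag UMIs, -0.10 without cycling cells and -0.016 with the sexes equal, and it turned to 0.066 under stricter gates and 0.0095 in Xist cells.

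For chelator against control, the stem cell median (-0.07) was -0.023 in Xist cells and -0.029 after thinning. The immediate-early median (0.27) was 0.22 with a median per pool, 0.19 under stricter gates, 0.90 in Y cells, 0.35 without the cells of fewest tag UMIs and 0.13 with the sexes equal, and -0.49 in Xist cells over the members with 200 UMIs there. The aged-HSC median (-0.07) was -0.024 in the lowest of 3 bins, -0.16 in Y cells and -0.026 after thinning, and turned to 0.023 in Xist cells and 0.00276 with the sexes equal. The difference in the share of the gate (-18.1) was -11.9 in the lowest of 3 bins, -5.53 in Xist cells and 0 with a median per pool, by construction. The difference in the share of LSK cells (-3.90) was -5.77 in Y cells, and turned to 1.72 with a median per pool and 4.15 in Xist cells. Without the cells of fewest tag UMIs it was -12.1, a share of the deeply tagged LSK cells alone.

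Among named genes with enough UMIs in each group for a ratio, the chelator to control ratio turned for Hist1h2bb (0.0086 in Y cells), Cdk5rap1 (0.038 in Xist cells), Hist1h2ak (0.25 without cycling cells), Gkn3 (0.99 in Xist cells), Dlk1 (-1.99), Socs3 (-0.19), Fos (-0.014), Nr4a1 (-0.017) and Fosb (-0.38), all in Xist cells, Eps8l1 (-0.27 in Y cells), and Mpo (-0.69 under stricter gates, -0.18 without cycling cells, -1.30 in Xist cells, -0.82 with the sexes equal and -0.25 without its richest cells). The cause was not tested for any of these. Car1 was left out of the settings that leave under 3 UMIs in a group, and its ratio was 0.14 after thinning. Beyond these, 148 summary values were close to those reported, and 48 values of named genes kept their direction but fell short of 1.5-fold. The median of all genes stayed within 0.03 of 0 under every scaling.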
